A study of Mus musculus with 2 samples.

Results

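Cycling cells of every lineage were collected from single-cell RNA profiles of the mouse aorta, made in droplets. They were defined by 6 transcripts of proliferating cells, Top2a, Mki67, Birc5, Cenpf, Nusap1 and Ube2c. Among barcodes with at least 1500 UMIs (unique molecular identifiers, which count captured transcripts) and at most 20% mitochondrial UMIs, those with at least 5 UMIs summed over the 6 genes and at least 3 of the 6 detected were called cycling. This gave 265 cycling barcodes among 19995 kept, 66 of 6342 in the library labelled Kif13b-/- and 199 of 13653 in the wild-type (WT) library. Whole aortas were the labelled tissue of both, with 1 library per genotype, named here by those labels. Kif13b encodes a kinesin motor, and by its title the study concerns KIF13B of macrophages in atherosclerosis and the clearance of dying cells through the receptor MERTK. The title of the mutant library gives a homozygous genotype, whereas its genotype field reads knock down. Which part of the gene was removed, the mouse strain, their age, sex and diet, and how many animals each library pooled are not given in the sources used here. A single library stood for each genotype, so no p-value is given, and 95% intervals cover counting error only.

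A dividing cell copies its DNA in S phase and separates the copies in mitosis after a gap named G2. In S phase the E2F factors drive genes for the replication fork, such as the Mcm helicase subunits, the sliding clamp Pcna and the nucleotide-making enzyme Rrm2. In G2 and mitosis (G2/M) another program follows, which holds the mitotic cyclins and kinases, the kinetochore that ties chromosomes to the spindle, the condensins that compact DNA and the mitotic kinesins that move it. In atherosclerotic arteries, division of macrophages within the plaque and of modulated smooth muscle cells is known to add to the lesion.

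The libraries differed in depth and in quality. The Kif13b-/- library held 64455003 UMIs over 7766 barcodes, and the WT library 93136569 UMIs over 21126 barcodes. Both barcode numbers exceed the 6000 cells loaded and the 3000 targeted for recovery, so some barcodes are not intact single cells. After the filter, 6342 Kif13b-/- and 13653 WT barcodes still exceeded the cells loaded, so shares here are of barcodes and not of cells. Kept barcodes had a median of 6609.5 UMIs in the Kif13b-/- library and 3465 in the WT library, with a median mitochondrial share of 7.84% and 5.35%. The libraries shared 52 barcode sequences, none (0) of them cycling. A cluster of 1327 Kif13b-/- and 5 WT barcodes, led by mitochondrial transcripts with C1qb and Trem2 and with a median of 15.3% mitochondrial UMIs, made up 20.9% of the kept Kif13b-/- barcodes. None (0) of its Kif13b-/- barcodes was cycling, which allows a share of up to 0.278%, and results that its size touches are given with and without it. Kif13b itself was read at 43.9 CPM (UMIs of the gene as a share of all UMIs of the group, scaled to the same total for every group) over all kept Kif13b-/- barcodes and 70.7 CPM in WT. In cycling barcodes it stood at 41.2 CPM (95% interval 31.8 to 52.5) in Kif13b-/- and 64.3 CPM (54.9 to 74.7) in WT. The counts come from the 3' ends of transcripts, so they do not check a deletion elsewhere in the gene.

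The 6 genes chose the barcodes, and their levels are therefore a description. Summed over the 6, cycling barcodes held 5 to 455 UMIs with a median of 17.5 in Kif13b-/-, and 5 to 226 with a median of 11 in WT. As a level, this was a median of 1129 CPM over the 66 Kif13b-/- barcodes and 1775 CPM over the 199 WT barcodes, against pooled levels of 29.0 and 29.9 CPM in all other kept barcodes of the 2 libraries. In 3 Kif13b-/- and 8 WT cycling barcodes the summed level was under 10 times that of the other kept barcodes. All 6 transcripts were seen in 23 Kif13b-/- barcodes (34.8%) and 56 WT barcodes (28.1%). Top2a, the topoisomerase that untangles chromosomes, stood at 446 CPM in Kif13b-/- and 473 CPM in WT cycling barcodes, against 5.81 and 6.29 CPM in the others. Mki67, which coats mitotic chromosomes, stood at 341 and 306 CPM, against 9.31 and 9.81 CPM. These genes, DNA-bound proteins of dividing cells, were at about equal levels in the cycling barcodes of both libraries. Birc5 (survivin, of the chromosomal passenger complex) stood at 240 CPM in Kif13b-/- and 269 CPM in WT, and Cenpf, an outer kinetochore protein, at 192 and 276 CPM. Nusap1, which bundles spindle microtubules, stood at 116 CPM in Kif13b-/- and 172 CPM in WT, and Ube2c, the ubiquitin-conjugating enzyme of the anaphase-promoting complex, at 260 and 366 CPM. Just inside the threshold lay 5 Kif13b-/- and 19 WT cycling barcodes with exactly 5 UMIs of the 6 genes. Just outside lay 35 Kif13b-/- and 61 WT barcodes with 4 UMIs, of which 13 and 31 showed at least 3 of the genes. The 4 labelled markers, Top2a, Mki67, Birc5 and Cenpf, were each detected in at least 65.3% of the cycling barcodes of either library.

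As a background for droplets that carry stray transcripts, neutrophil-like barcodes were counted, since mature neutrophils are known to have left the cycle. In WT the comparison is weakened by a cluster with neutrophil genes that held 11 cycling of 72 barcodes. Any UMI of the 6 genes was present in 8.62% of 58 Kif13b-/- and 11.7% of 213 WT neutrophil-like barcodes, at median depths of 2948 and 2343 UMIs. The full criterion was met by 0 of 58 and 4 of 213 (1.88%, interval 0.514 to 4.74). That WT value lies above the WT cycling shares of fibroblast-like (1.29%), endothelial-like (1.20%) and smooth muscle-like (0.297%) barcodes given below. In macrophage-like barcodes any such UMI was present in 29.4% in Kif13b-/- and 26.9% in WT, at greater depths. With every barcode thinned to 1500 UMIs, the shares were 10.1% and 12.4% in macrophages, against 3.45% and 9.39% in neutrophil-like barcodes. The intervals of these shares overlapped in both libraries. In WT they were 10.4 to 14.7 and 5.83 to 14.1. In Kif13b-/- the macrophage interval began at 7.71%, below the upper end of the neutrophil-like interval at 11.9%.

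Promoter sequence is shown for 4 of the 6 genes, since expression of G2/M genes is known to run through 2 short elements. They are the cell cycle homology region (CHR, TTTGAA), bound by the MuvB complexes, and CCAAT boxes, bound by NF-Y. The windows are the 250 bases before each gene's start in RefSeq on GRCm38.p6, read 5' to 3' on the gene's strand, and capitals mark every TTTGAA and CCAAT on either strand. Top2a lies on the minus strand at chr11:99024190-99024439, Mki67 on the minus strand at chr7:135716380-135716629, Cenpf on the minus strand at chr1:189688087-189688336 and Ube2c on the plus strand at chr2:164769679-164769928.
Top2a: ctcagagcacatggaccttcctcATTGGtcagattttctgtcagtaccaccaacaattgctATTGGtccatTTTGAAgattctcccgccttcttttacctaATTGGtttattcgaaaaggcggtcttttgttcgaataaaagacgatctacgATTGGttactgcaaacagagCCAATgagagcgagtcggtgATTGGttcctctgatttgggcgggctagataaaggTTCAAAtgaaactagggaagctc
Mki67: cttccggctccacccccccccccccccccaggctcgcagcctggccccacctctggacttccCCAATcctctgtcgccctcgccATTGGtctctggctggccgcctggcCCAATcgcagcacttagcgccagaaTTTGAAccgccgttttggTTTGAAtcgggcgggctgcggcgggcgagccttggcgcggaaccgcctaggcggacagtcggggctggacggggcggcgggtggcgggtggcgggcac
Cenpf: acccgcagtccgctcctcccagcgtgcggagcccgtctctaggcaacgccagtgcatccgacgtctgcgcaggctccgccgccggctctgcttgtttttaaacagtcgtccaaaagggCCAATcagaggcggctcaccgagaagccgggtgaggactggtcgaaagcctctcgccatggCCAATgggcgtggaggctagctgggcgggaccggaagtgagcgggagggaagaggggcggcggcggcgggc
Ube2c: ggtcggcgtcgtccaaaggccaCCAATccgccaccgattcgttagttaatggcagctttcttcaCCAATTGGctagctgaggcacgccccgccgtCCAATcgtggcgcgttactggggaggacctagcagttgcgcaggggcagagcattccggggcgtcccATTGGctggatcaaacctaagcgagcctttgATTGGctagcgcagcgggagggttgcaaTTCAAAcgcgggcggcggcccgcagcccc
The Top2a window held 2 CHR and 6 CCAAT matches, the Mki67 window 2 and 3, the Ube2c window 1 and 6 and the Cenpf window 0 and 2. Of the Ube2c CCAAT matches 2 overlap, on opposite strands. The Birc5 and Nusap1 windows held 0 of either. Over the list of G2/M genes without the 6, TTTGAA was present in 39.1% of 46 promoter windows, against 14.3% of 35 windows of S genes and 16.0% of all 32851 windows. CCAAT was present in 76.1%, 65.7% and 33.8% of the same sets. An E2F element (TTTGGCGC or TTTCGCGC, either strand) was present in 17.1% of S windows, 4.35% of G2/M windows and 0.654% of all windows. G2/M genes thus held the CHR most often and S genes the E2F letters most often. A match is a description of the letters and not of binding.

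Cycling barcodes made up 1.04% (95% interval 0.806 to 1.32) of kept Kif13b-/- barcodes and 1.46% (1.26 to 1.67) of kept WT barcodes, a ratio of 0.714 (0.532 to 0.948). Without the cluster held almost only by Kif13b-/-, the shares were 1.32% and 1.46%, a ratio of 0.903 (0.673 to 1.20). Depth moved with the call in both libraries. Cycling barcodes had a median of 20095.5 UMIs in Kif13b-/- and 10207 in WT, against 6573.5 and 3428.5 in the other kept barcodes. Below 2500 UMIs 0 of 912 Kif13b-/- barcodes (interval 0 to 0.404%) and 0.393% of 4575 WT barcodes were cycling. From 5000 to under 10000 UMIs the shares were 0.405% in Kif13b-/- and 1.60% in WT, and from 20000 UMIs 4.86% and 6.87%. In each of the 5 depth bins the Kif13b-/- share was thus the lower, also without the Kif13b-/- cluster. After every barcode had been thinned to 1500 UMIs and the criterion lowered to 2 UMIs over 2 genes, 0.725% of Kif13b-/- and 1.60% of WT barcodes met it, a ratio of 0.454. The same criterion at full depth was met by 4.40% and 3.71%, a ratio of 1.18, so the direction of the pooled share turned with the treatment of depth. At a mitochondrial limit of 10% the ratio was 0.991.

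**Figure D1:**
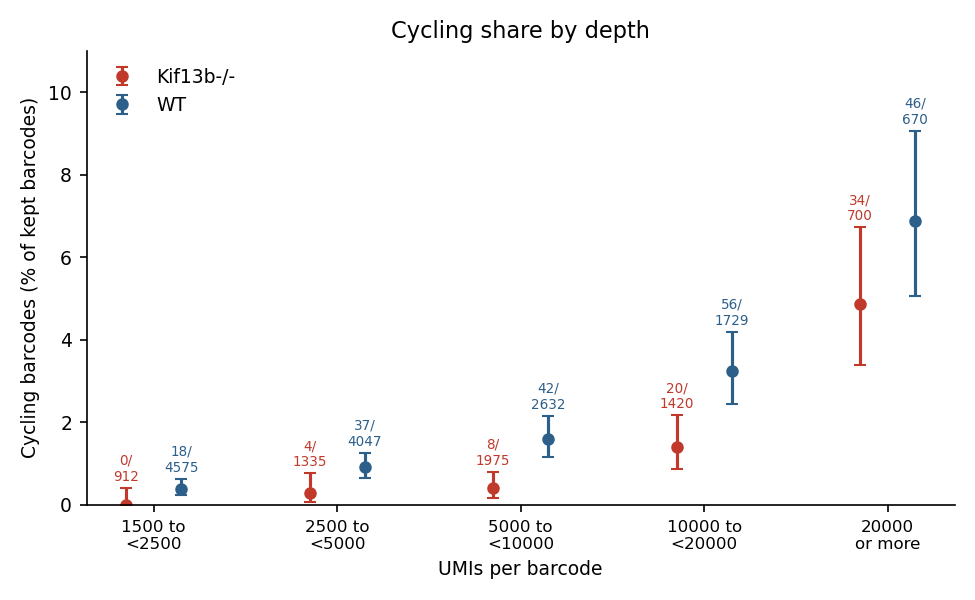
Percent of kept barcodes called cycling (y axis, with exact 95% intervals) in 5 bins of UMIs per barcode (x axis), for the Kif13b-/- and the WT library. The share rose with depth in both libraries, to 4.86% of Kif13b-/- and 6.87% of WT barcodes from 20000 UMIs.

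By the rule, every lineage looked for held at least 1 cycling barcode in at least 1 library. Each barcode was assigned to the lineage panel (C1q genes for macrophages, Cd3 for T cells, Cdh5 for endothelium, Dcn for fibroblasts, Acta2 for smooth muscle, Acan for chondrocytes) that led the next by at least 2 times, and was otherwise called mixed or, with no panel reached, none. Macrophage-like barcodes were the largest named class among the cycling barcodes of both libraries, 31 of 66 in Kif13b-/- (47.0%) and 50 of 199 in WT (25.1%), a ratio of 1.87 (1.15 to 2.98). Among the cycling barcodes of named classes alone they were 60.8% and 39.4%, a ratio of 1.54 with an interval of 0.953 to 2.46 that spans 1. Fibroblast-like barcodes followed with 15 (22.7%) and 46 (23.1%). T cell-like barcodes numbered 3 and 11, endothelial-like 2 and 10, smooth muscle-like 0 and 9 and chondrocyte-like 0 and 1. That 1 chondrocyte-like barcode held 26444 UMIs, with the 6 genes at 265 CPM. Its S genes stood at 340 CPM, against 438 CPM in other WT chondrocyte-like barcodes. Its G2/M genes without the 6 stood at 1059 CPM, against 680 CPM. The mixed class held 10 and 50, and the class with no panel 5 and 22. The most frequent mixture was fibroblast with smooth muscle genes, in 3 Kif13b-/- and 27 WT cycling barcodes. With 22 wider marker panels in place of the 6, 1 Kif13b-/- and 23 WT cycling barcodes fell to modulated stromal cells and 4 and 1 to fibroblasts. Pericytes took 0 and 6, dendritic cells 1 and 4, and 26 and 95 fell to no single panel. These classes are cut from a score: the lead over the next panel lay between 1.5 and 3 times in 7 Kif13b-/- and 38 WT cycling barcodes.

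The panel levels of macrophage-like cycling barcodes are a description, since the C1q panel and its lead over the others chose this class. The C1q panel stood at 7281 CPM in Kif13b-/- and 7379 CPM in WT, and at no less than 1592 and 1861 CPM in any single barcode. The Cd3 panel stood at 9.23 and 3.90 CPM, the Cdh5 panel at 23.1 and 26.0 CPM and the Dcn panel at 135 and 253 CPM. Acta2 panel transcripts, those of contractile smooth muscle, were present at 954 CPM in Kif13b-/- and 673 CPM in WT, with up to 13834 and 10940 CPM in a single barcode. Whether these came from doublets or free RNA was not tested. Removing 322 Kif13b-/- and 1491 WT barcodes as putative doublets took 0 and 5 cycling barcodes away.

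Within lineages, T cells and macrophages held the highest shares of cycling barcodes in both libraries, and smooth muscle was among the lowest. Of macrophage-like barcodes 5.70% (31 of 544) were cycling in Kif13b-/- and 5.06% (50 of 989) in WT, a ratio of 1.13 (0.696 to 1.80). Of T cell-like barcodes 3.95% (3 of 76) and 6.36% (11 of 173) were cycling, a ratio of 0.621 (0.111 to 2.35). The intervals of both ratios span 1. Among fibroblast-like barcodes 0.957% (15 of 1568) in Kif13b-/- and 1.29% (46 of 3553) in WT were cycling, a ratio of 0.739 (0.383 to 1.35), and among endothelial-like ones 0.917% (2 of 218) and 1.20% (10 of 832). No (0) smooth muscle-like barcode of 1062 was cycling in Kif13b-/-, with an interval of 0 to 0.347%, against 0.297% (9 of 3034) in WT. The interval of their ratio, 0 to 1.45, spans 1. Thinned to 1500 UMIs, with 2 UMIs over 2 genes as the criterion, 0 of 1062 and 18 of 3034 (0.593%) met it, and the interval of the ratio, 0 to 0.650, lay below 1. Of the neutrophil-like background, 0 of 58 Kif13b-/- and 8 of 213 WT barcodes (3.76%) met that criterion, above the WT smooth muscle share. The mixed class held 0.405% (10 of 2471) cycling in Kif13b-/- and 1.30% (50 of 3851) in WT, a ratio of 0.312 (0.141 to 0.622), or 0.838% against 1.30% and a ratio of 0.645 without the Kif13b-/- cluster, which held 1277 of those mixed barcodes. All classes but macrophages together gave 0.604% (35 of 5798) and 1.18% (149 of 12664), a ratio of 0.513 (0.344 to 0.746), and 0.664 (0.446 to 0.965) without that cluster. When macrophages were instead taken from clusters, built without cell cycle genes, their ratio was 0.710 (0.451 to 1.09), and after thinning 0.727. The higher macrophage share in Kif13b-/- therefore held neither beyond counting error nor under these settings.

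**Figure D2:**
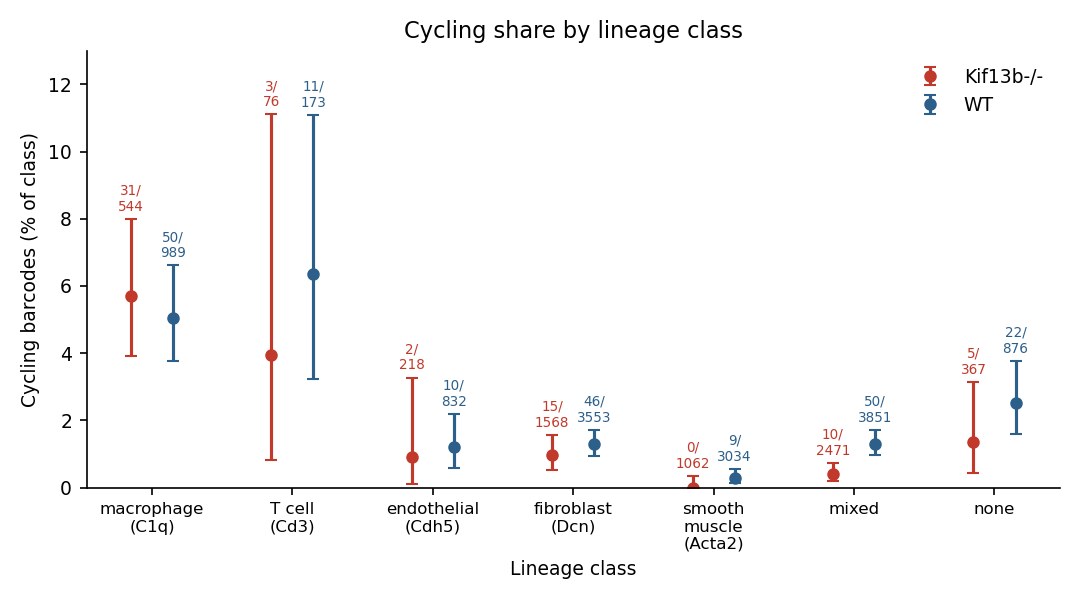
Cycling barcodes as a percent of the kept barcodes of each lineage class (y axis), with exact 95% intervals and the counts above them, for Kif13b-/- and WT side by side (the chondrocyte-like class is not drawn). Macrophage-like shares were 5.70% in Kif13b-/- and 5.06% in WT, whereas smooth muscle-like shares were 0 and 0.297%.

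Clusters placed the cycling barcodes more finely. A macrophage cluster led by Ms4a14 and Mrc1 held 25 cycling of 438 barcodes in Kif13b-/- and 45 of 737 in WT. The other, led by Mmp12, Ccl3, Tnf and Fabp5, held 6 of 624 and 29 of 1062. Its median depth was 2473 UMIs, against 10407 in the first. In a stromal cluster led by Crabp2 and Vcam1, 9 of 545 Kif13b-/- and 35 of 1185 WT barcodes were cycling. A fibroblast cluster led by Il33 and Pi16 held 6 cycling of 216 in Kif13b-/- and 0 of 288 in WT. The Kif13b-/- share was also the higher in a second fibroblast cluster, with 2 of 322 and 0 of 516, in a B cell cluster, with 4 of 105 and 1 of 112, and in a chondrocyte cluster led by Col10a1, with 4 of 92 and 3 of 543. Clusters thus placed cycling barcodes of Kif13b-/- with chondrocytes, where the panel rule had placed 0. A dendritic cluster held 2 of 90 and 9 of 203. Among T cells, 5 of the 11 WT cycling barcodes carried a UMI of Rag1 or Dntt, which rearrange antigen receptor genes in lymphocyte precursors, and 0 of the 3 in Kif13b-/-. Without barcodes holding either gene, 3.95% (3 of 76) in Kif13b-/- and 3.80% (6 of 158) in WT were cycling, a ratio of 1.04.

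Cycling macrophages carried the S and G2/M programs at levels well above other macrophages in both libraries. The lists hold published phase genes, and members with at least 20 UMIs were measured. At a ratio of at least 1.5, 36 of 37 S genes were higher in Kif13b-/- cycling over other macrophages, with a median log2 ratio of 2.45, and 32 of 38 in WT, with a median of 2.33. Of all genes tested 23.9% were that much higher in Kif13b-/- and 20.6% in WT, and 17.6% and 18.7% that much lower. G2/M genes without the 6 gave medians of 4.53 (43 of 44 higher) and 4.17 (41 of 42 higher). The rule used this contrast, and nothing is read from the counts. Cdk1, the kinase that drives entry into mitosis, stood at 162 CPM in cycling and 2.16 CPM in other Kif13b-/- macrophages, and at 175 and 4.34 CPM in WT. Rrm2, which makes deoxynucleotides, stood at 98.5 and 1.16 CPM in Kif13b-/- and at 100 and 3.18 CPM in WT. Stmn1, a microtubule destabiliser of dividing cells, stood at 1015 and 44.3 CPM in Kif13b-/- and at 1178 and 59.8 CPM in WT. These 3 genes were not among the 6 of the rule, and each was higher in the cycling macrophages of both libraries. They are cell cycle genes as the 6 are, so their levels are a description too. By role, the medians were 5.83 and 4.55 for mitotic cyclins and kinases, 5.60 and 4.32 for mitotic kinesins, 3.73 and 3.44 for nucleotide synthesis and 2.32 and 2.33 for replication fork genes, in Kif13b-/- and WT. CDK inhibitors, the brakes of the cycle, gave medians of 0.22 and 0.11. Their member Cdkn1a (p21) stood at 729 CPM in cycling and 591 CPM in other Kif13b-/- macrophages, and at 727 and 784 CPM in WT.

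Genes of resident macrophages were mostly lower in cycling than in other macrophages. Those of lipid-loaded ones were mostly lower in Kif13b-/-, whereas in WT 6 of 13 were. The resident list had a median of -1.47 with 6 of 8 genes lower in Kif13b-/-, and -1.82 with 8 of 9 lower in WT. F13a1, a transglutaminase of resident macrophages, had 0 UMIs in cycling and 37.9 CPM in other Kif13b-/- macrophages, and 2.60 and 105 CPM in WT. Ccl8, a chemokine of the same cells, stood at 9.23 and 77.4 CPM in Kif13b-/- and at 22.1 and 291 CPM in WT. Mrc1, the mannose receptor, stood at 53.8 and 110 CPM in Kif13b-/- and at 66.3 and 236 CPM in WT. All 3 were thus lower in cycling barcodes of both libraries. The lipid-associated list had a median of -0.93 with 10 of 13 lower in Kif13b-/-, and -0.38 with 6 of 13 lower in WT. Apoe, the lipoprotein that carries cholesterol out of macrophages, stood at 4192 CPM in cycling and 14213 CPM in other Kif13b-/- macrophages, and at 4244 and 11767 CPM in WT. Gpnmb, a membrane glycoprotein of lipid-loaded macrophages, stood at 297 and 846 CPM in Kif13b-/- and at 233 and 659 CPM in WT. The receptor Csf1r, through which CSF1 sustains macrophages, stood at 275 and 266 CPM in Kif13b-/- and at 224 and 268 CPM in WT. Axl, a TAM receptor like MERTK, stood at 189 and 100 CPM in Kif13b-/- and at 143 and 103 CPM in WT. In fibroblast-like barcodes the S list had medians of 2.46 in Kif13b-/- and 2.51 in WT and the G2/M list without the 6 of 4.69 and 5.18, where 27.8% and 26% of all genes tested were at least 1.5 times higher. The cycling macrophages were deeper, with a median of 17206 UMIs in Kif13b-/- and 14370.5 in WT, and the part of depth in these levels was not tested.

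**Figure D3:**
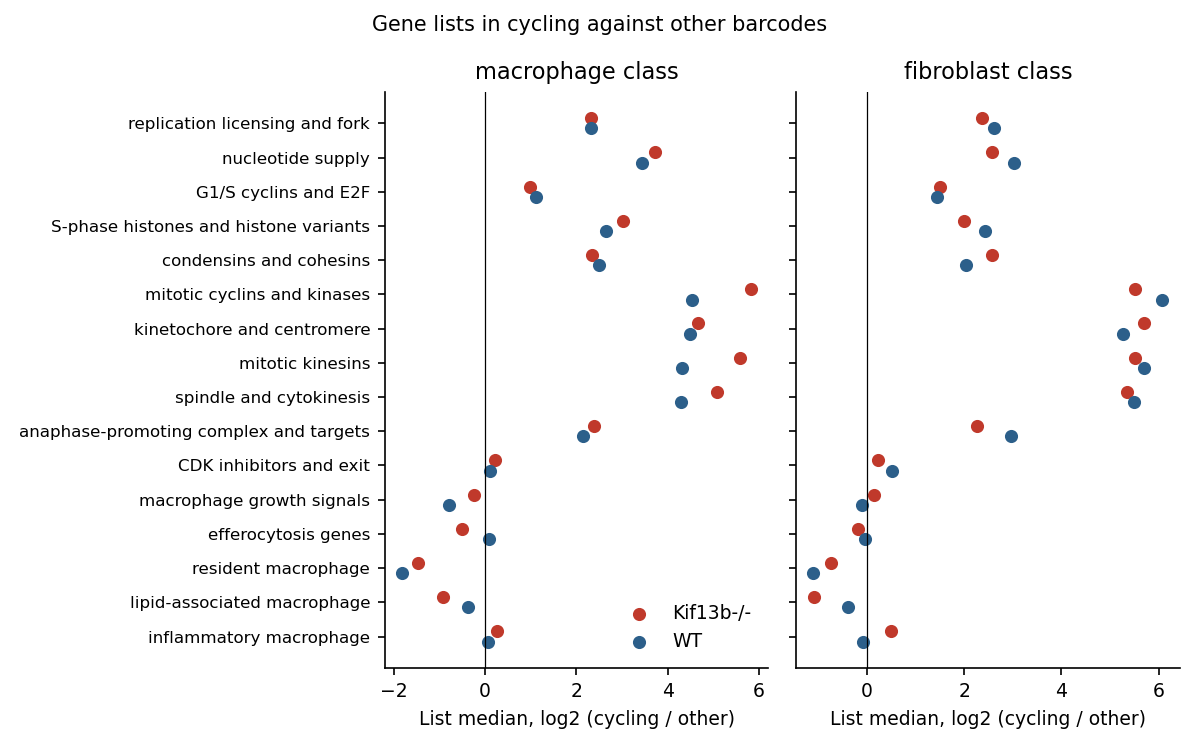
Median log2 ratio of cycling over other barcodes (x axis) for each gene list (rows), in macrophage-like and fibroblast-like barcodes of the Kif13b-/- and the WT library. Mitotic lists lie farthest to the right, whereas the resident macrophage list lies at -1.47 in Kif13b-/- and -1.82 in WT macrophages.

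Outside every list, 15 genes were taken by their mean log2 ratio of cycling over other barcodes in macrophages and fibroblasts of both libraries. They were H2ac10, Neil3, Depdc1a, Shcbp1, Kntc1, Iqgap3, Pclaf, Knstrn, Prr11, Foxm1, Efcab11, H2ac24, Diaph3, Cenpi and D17H6S56E-5, with means of 7.58 to 4.99. Pclaf, a PCNA-binding factor, stood at 243 CPM in cycling and 5.48 CPM in other Kif13b-/- macrophages. Diaph3, a formin of the dividing cell cortex, stood at 171 and 6.97 CPM, and the replication-dependent histone gene H2ac24 at 168 and 2.66 CPM. Knstrn, a kinetochore and spindle protein, stood at 52.3 and 0.664 CPM, and Foxm1, the factor that drives G2/M genes, at 36.9 and 0.996 CPM. Neil3, a DNA glycosylase, stood at 32.3 CPM, Shcbp1 at 36.9 CPM and Kntc1, a kinetochore protein, at 29.2 CPM, each with 0 UMIs in the other Kif13b-/- macrophages.

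The balance of the phases differed between the libraries outside the macrophages and hardly within them. Of all S and G2/M UMIs without the 6 genes, S genes took 31.9% (31.1 to 32.7) in Kif13b-/- and 25.5% (25.0 to 26.1) in WT cycling barcodes. Per barcode the S share ran from 2.56% to 66.7% with a median of 34.5% in Kif13b-/-, and from 0% to 64.8% with a median of 20% in WT. The ranges overlap over almost their whole length, with the WT barcodes gathered lower. In macrophages it was 25.3% in Kif13b-/- and 24.5% in WT, with per-barcode medians of 23.2% and 21.4%. In fibroblasts it was 25.1% and 21.0%, with per-barcode medians of 26.1% and 16.3%. There 1 Kif13b-/- barcode of 58180 UMIs held G2/M genes at 17944 CPM, against 5765 CPM for the class. In mixed barcodes the S share was 43.5% and 25.9%, with per-barcode medians of 44.1% and 14.6%. T cells gave 60.5% over 3 Kif13b-/- and 39.0% over 11 WT barcodes, and endothelial cells 61.1% over 2 and 37.3% over 10. Barcodes with more S than G2/M UMIs numbered 12 of 66 (18.2%) in Kif13b-/- and 13 of 199 (6.53%) in WT. As levels, S genes summed to 2558 CPM in Kif13b-/- and 2315 CPM in WT cycling barcodes, and G2/M genes to 5468 and 6750 CPM. Most of the rule's 6 genes peak in G2/M, so cells in early S phase can be under-represented among the cycling barcodes. The rule also counts UMIs, and cycling barcodes were deeper in Kif13b-/- (median 20095.5 UMIs) than in WT (10207). How far depth bears on the S shares through this selection was not tested.

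**Figure D4:**
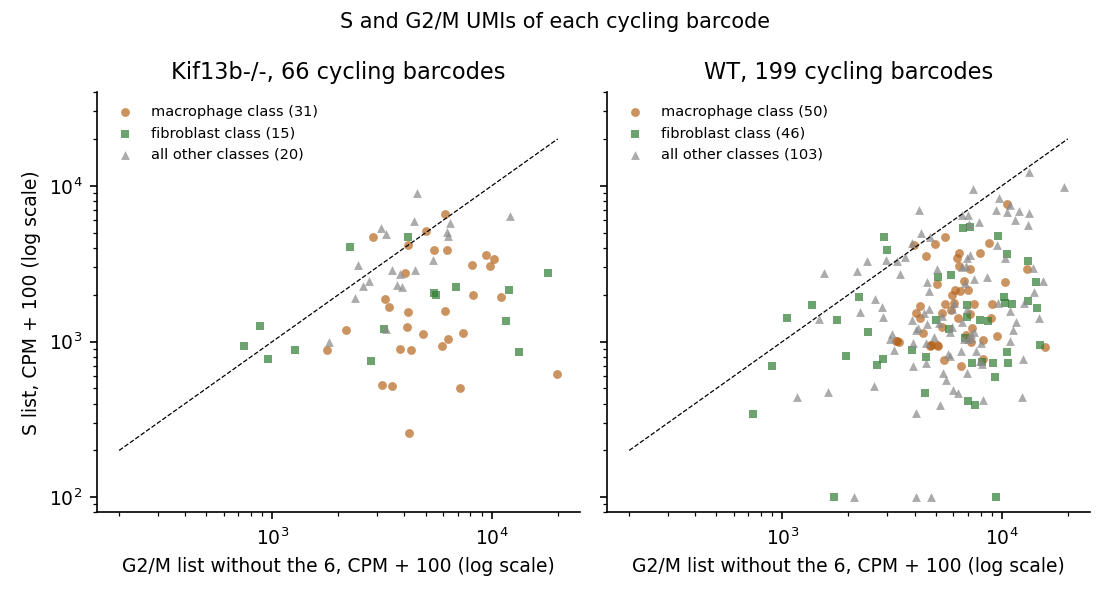
Level of the S list (y axis) against that of the G2/M list without the 6 rule genes (x axis), both as CPM + 100 on log scales, for each cycling barcode of Kif13b-/- (left) and WT (right), with class shown by colour and shape and equal levels by the dashed line. Few barcodes lie above the line, 12 of 66 in Kif13b-/- and 13 of 199 in WT.

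Between genotypes, cycling barcodes of all lineages together had slightly more of the S genes and less of the G2/M genes in Kif13b-/-. The S list had a median log2 ratio of 0.11, with 9 of 43 genes at least 1.5 times higher and 2 lower, whereas 10.2% of all 11331 genes tested were that much higher and 13.6% lower, with a median of -0.04. Mcm5, of the replicative helicase, stood at 59.6 CPM in Kif13b-/- and 34.6 CPM in WT (log2 ratio 0.78). Rfc2, of the clamp loader, stood at 67.9 and 39.2 CPM (0.79), Fen1, the flap endonuclease, at 50.7 and 30.4 CPM (0.74) and the licensing factor Cdc6 at 26.0 and 15.2 CPM (0.77). The sliding clamp Pcna stood at 332 and 280 CPM (0.25). The replication list held 4 higher and 0 lower of 23. Of 54 G2/M genes 0 were higher and 12 lower, with a median of -0.25. Cdc20, the activator of the anaphase-promoting complex, stood at 57.7 CPM in Kif13b-/- and 104 CPM in WT (-0.84), and the mitotic kinase Aurka at 22.2 and 39.9 CPM (-0.83). The spindle protein Hmmr stood at 86.2 and 146 CPM (-0.76), Cenpa, the centromeric histone, at 190 and 306 CPM (-0.69) and Cks2, a CDK subunit, at 293 and 443 CPM (-0.60). Kinetochore genes had a median of -0.39 with 5 of 20 lower, and mitotic kinesins one of -0.42 with 3 of 14 lower. Cdk1 differed little, at 174 and 184 CPM.

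The pattern was larger in the cycling barcodes that were not macrophage-like, 35 in Kif13b-/- and 149 in WT, a difference between classes that was not tested. There the S list had a median of 0.33 with 10 of 42 higher and 0 lower, where 12.1% of all genes tested were at least 1.5 times higher and 15.7% lower. The G2/M list without the 6 had a median of -0.42 with 0 of 48 higher and 18 lower. Rfc2 stood at 79.8 CPM in Kif13b-/- and 31.7 CPM in WT (log2 ratio 1.33) and was seen in 27 of 35 and 41 of 149 barcodes. Mcm5 stood at 68.0 and 33.3 CPM (1.03), Cdc6 at 33.4 and 17.7 CPM (0.92) and Mcm7, of the same helicase as Mcm5, at 89.6 and 55.9 CPM (0.68). Aurka stood at 15.1 CPM in Kif13b-/- and 44.6 CPM in WT (-1.52), Cenpa at 122 and 327 CPM (-1.42) and Cenpe, the kinetochore kinesin, at 44.2 and 121 CPM (-1.44). Of the mitotic cyclins, Ccnb1 stood at 51.8 CPM in Kif13b-/- and 121 CPM in WT (-1.21), and Ccnb2 at 50.7 and 119 CPM (-1.22). Kif4, a chromosome-bound kinesin, stood at 33.4 and 83.3 CPM (-1.30). Kinesins as a list had a median of -0.57 with 7 of 14 lower, and kinetochore genes one of -0.42 with 8 of 20 lower. These barcodes mix lineages in other proportions in each library, and at other depths. Fibroblast-like ones had medians of 30160 UMIs in Kif13b-/- and 16070 in WT, mixed ones 16536 and 4100, and those of no panel 50374 and 16389.5. Cycling macrophages stood closer, at 17206 and 14370.5 UMIs. The rule counts UMIs, so a shallow barcode must hold the 6 genes at a higher level to enter. How far this selection bears on the phase lists was not tested. In 1 alternative the WT barcodes were reweighted to the lineage classes of Kif13b-/-. Over that and the other settings the S median ran from 0.29 to 0.61. The G2/M median without the 6 ran from -0.46 to -0.33. The part of lineages within the mixed class and the class with no panel was not tested. In fibroblast-like cycling barcodes alone the S median was -0.01 and the G2/M median without the 6 was -0.26. Of those G2/M genes 3 of 48 were higher and 14 lower, where 13.9% of all genes tested were higher and 15.1% lower. With the wider panels, 4 Kif13b-/- and 1 WT of all cycling barcodes fell to fibroblasts and 1 and 23 to modulated stromal cells. The fibroblast-like class therefore need not hold the same cells in both libraries. Of the inflammatory list 6 of 9 genes were higher there and 0 lower, with a median of 1.09, among them the chemokines Ccl2 at 762 CPM in Kif13b-/- and 288 CPM in WT and Ccl3 at 226 and 59.0 CPM, over 15 and 46 barcodes. Single barcodes held 59.9% of the Kif13b-/- UMIs of Ccl2, 61.5% of those of Ccl3 and 56.5% of those of Ccl4, and 1 barcode held the most of Ccl3, Ccl4, Cxcl2 and Il1b alike.

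Other genes of the non-macrophage cycling barcodes rested on single barcodes as well. The lipid-associated list had a median of 0.72 with 8 of 13 higher and 1 lower (Cd9), where 12.1% of all genes tested were higher and 15.7% lower. However, 96.4% of the Kif13b-/- UMIs of Gpnmb and 67.0% of those of Lpl, the lipoprotein lipase, came from 1 barcode of no class. In fibroblast-like cycling barcodes alone that list had a median of -0.56 with 0 of 9 higher and 4 lower, against 13.9% and 15.1% of all genes tested. For Cenpf, at 192 CPM in Kif13b-/- and 325 CPM in WT (-0.76), 1 fibroblast-like barcode held 67.4% of the Kif13b-/- UMIs. The cytokine Csf2 stood at 173 CPM in Kif13b-/- and 4.84 CPM in WT non-macrophage cycling barcodes, seen in 6 of 35 and 3 of 149, with 32.5% of the Kif13b-/- UMIs in 1 barcode.

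In macrophage-like cycling barcodes the phase lists stood level between the genotypes. The S list had a median log2 ratio of 0.00 with 4 of 34 higher and 4 lower, and the G2/M list without the 6 one of -0.01 with 4 of 44 higher and 2 lower. Over all 7184 genes tested 13.5% were at least 1.5 times higher and 8.83% lower, with a median of 0.05, so the shares of S genes, 4 of 34, and G2/M genes, 4 of 44, lay near that background. Pcna stood at 325 CPM in Kif13b-/- and 324 CPM in WT, Cdk1 at 162 and 175 CPM and Cenpa at 286 and 255 CPM. These 3 were level in macrophages, although Cenpa was lower over all lineages. Fen1 stood at 73.8 and 40.3 CPM (0.87), the activating E2F factor E2f3 at 84.6 and 37.7 CPM (1.15), the G1 kinase Cdk6 at 712 and 473 CPM (0.59) and Ccnb1 at 102 and 55.9 CPM. Replication fork genes had a median of -0.08, mitotic cyclins and kinases -0.02, kinetochore genes 0.00 and spindle genes -0.02. Kinesins had one of 0.43, with Kif2c, Kif18b and Kif20a higher of 12. Histone genes had one of -0.49, with 0 of 14 higher and 6 lower, H1f5, H1f3, H2ac8, H1f4, H3c3 and H1f0. Of these the linker histone H1f4 stood at 83.1 CPM in Kif13b-/- and 174 CPM in WT (-1.06) and the core histone H2ac8 at 120 and 194 CPM (-0.69). The libraries were made from poly(A) RNA, and most replication-dependent histone transcripts are known to lack a poly(A) tail. The H1f4 difference turned to 0.53 after thinning to 1500 UMIs.

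**Figure D5:**
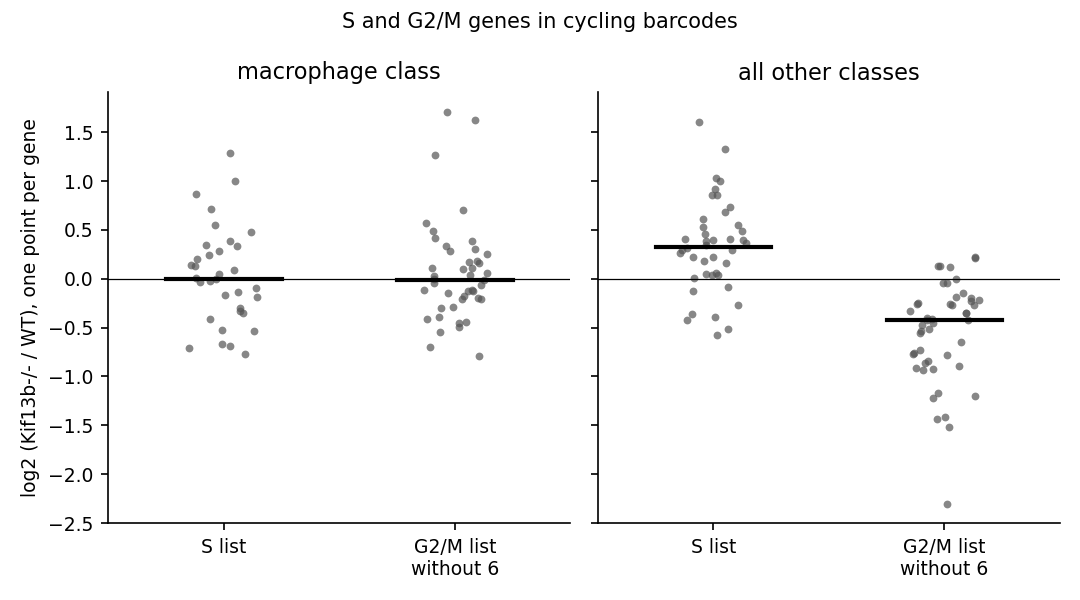
Log2 ratio of Kif13b-/- over WT (y axis) for each measured S and G2/M gene (points, with bars at the medians), in macrophage-like cycling barcodes (left) and in cycling barcodes of all other classes (right). The medians lie at 0.00 and -0.01 in macrophages, and at 0.33 and -0.42 in the other classes.

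Mertk, the receptor named in the series title, was read in few cycling macrophages. It stood at 52.3 CPM (34 UMIs in 12 of 31 barcodes) in Kif13b-/- and 27.3 CPM (21 UMIs in 16 of 50 barcodes) in WT, against 96.8 and 82.9 CPM in other macrophages. Without the barcode with the most Mertk UMIs the log2 ratio was 0.61, with an interval of -0.27 to 1.52. Kif13b stood at 35.4 CPM (22.4 to 53.1; 23 UMIs) in Kif13b-/- and 61.1 CPM (47 UMIs) in WT cycling macrophages, a log2 ratio of -0.77 (-1.57 to -0.04), and at 51.3 and 58.3 CPM in other macrophages. Without the barcode with the most Kif13b UMIs the ratio was -0.54 with an interval that spans 0, and after thinning 0.20. The efferocytosis list had a median of 0.04 in cycling macrophages, with 2 of 13 higher (Mertk and the scavenger receptor Cd36) and 2 lower (Kif13b and Gas6, the ligand that bridges dying cells to MERTK). These counts lay near the 13.5% of all genes that were higher and the 8.83% lower in cycling macrophages. In other macrophages its median was -0.05 with 0 of 13 higher and 0 lower, where 6.43% of all genes tested were higher and 8.44% lower. Growth signals of macrophages had a median of 0.09 with 2 of 9 lower, Csf1 and Maf. Lipid-associated genes had one of -0.02, and Apoe stood at 4192 and 4244 CPM. In that list Fabp5, a fatty acid carrier, stood at 417 and 637 CPM (-0.61), which turned to 0.37 without the barcode holding most of it. Inflammatory genes had a median of -0.27. Il1b stood at 1489 CPM in Kif13b-/- and 786 CPM in WT (0.92), or 0.09 without its highest barcode, and the chemokine Cxcl2 at 8544 and 13792 CPM (-0.69).

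The most distant genes in cycling macrophages rested mainly on single barcodes. Among 775 eligible genes, the 10 highest ran from Rapgef4 (log2 ratio 3.43) through Areg, Gpr183, Il21r, Nav3, Slpi, Tmtc2, St8sia4 and Tmcc3 to Tmem39a (1.80). For Rapgef4, Areg, Nav3, Tmtc2, St8sia4 and Tmcc3, over 50% of the Kif13b-/- UMIs came from 1 barcode. Areg, an EGF receptor ligand, stood at 502 CPM in Kif13b-/- and 71.5 CPM in WT cycling macrophages, seen in 3 of 31 and 10 of 50, and its log2 ratio of 2.80 was 1.30 without the highest barcode. Il21r, the receptor of interleukin 21, stood at 67.7 CPM in 17 of 31 Kif13b-/- barcodes and 11.7 CPM in 8 of 50 WT barcodes (2.47), against 32.5 and 20.5 CPM in other macrophages (0.66). Gpr183, an oxysterol receptor that guides immune cells, stood at 143 and 24.7 CPM (2.50) in 11 and 12 barcodes, with 34.4% of its Kif13b-/- UMIs in 1 barcode. In other macrophages Gpr183 ran the opposite way, at 33.0 and 42.8 CPM (-0.37), as did Areg, at 92.1 and 195 CPM (-1.08). The 10 lowest were Car3, Il12b, Edn1, Tmem80, Tesk2, Paip2b, Tiam1, Fap, Gdf15 and Rccd1. Car3, a carbonic anhydrase, had 0 UMIs in Kif13b-/- and 198 CPM in WT, at least 42.8-fold lower with a floor of 3 counts over the group, but 151 of its 152 WT UMIs lay in 1 barcode. Il12b, a subunit of interleukin 12, had 0 UMIs in Kif13b-/- and 65.0 CPM in WT, at least 14.1-fold lower, but 39 of its 50 WT UMIs (78%) lay in 1 barcode and 3 barcodes carried it. In other macrophages it ran the opposite way, at 86.8 CPM in Kif13b-/- and 55.0 CPM in WT. Gdf15, a stress-induced TGF-beta family cytokine, was spread over 14 of 31 Kif13b-/- and 28 of 50 WT barcodes, at 195 and 779 CPM (-1.99; -1.47 without the highest barcode), whereas in other macrophages it stood at 961 and 924 CPM (0.06). Fap, a fibroblast surface protease, stood at 35.4 CPM in 3 Kif13b-/- and 148 CPM in 15 WT barcodes (-2.04), beside the Dcn panel at 135 and 253 CPM in the same barcodes, and its ratio turned to 0.30 after thinning.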

How the data were processed

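Single-cell 3' libraries (10x v3.1) of 1 Kif13b-/- and 1 WT aorta sample were analysed from the filtered matrices that the authors deposited, whose values are UMI counts made with Cell Ranger 8.0.1 per the file headers and mm10 per the submitters' processing notes. Their gene annotation was not given in the sources used here. 0 per-sample columns were left unused. The members, gene lists and lineage panels were chosen with earlier results of these data known. Of 394 listed genes 383 were found in the files.

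A lineage class needed at least 3 UMIs over at least 2 panel genes and a score of at least 10% of the panel's 99th percentile, with a lead of 2 times. UMIs were summed per gene and library and divided by the group's total (CPM), and 0.5 UMIs were added before log2 ratios were taken. Intervals are Clopper-Pearson for shares, Poisson for sums and conditional binomial for ratios, at 95%. With 1 library per genotype no test was run. "Higher" and "lower" mean a ratio of at least 1.5 in genes with at least 20 UMIs. The summing step was tested on simulated pooled counts without spread between barcodes, which does not bear on genes held mainly by 1 barcode. Scrublet's automatic threshold marked 0 barcodes, so the highest-scoring 0.8% per 1000 barcodes were removed in 1 alternative, and kept otherwise. Clusters came from Leiden without cell cycle genes.

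The genes named are the 6 rule genes, Kif13b and Mertk, list members with the most UMIs or beyond the ratio, and in cycling macrophages the 10 highest and 10 lowest ratios. These needed at least 50 UMIs, at least 50 CPM and an interval that excludes equal levels. Csf2, and the genes given beside their levels in other macrophages, were chosen after their values were seen. Of the S and G2/M genes 31 of 43 and 41 of 48 were matched to RefSeq promoters (GRCm38.p6). Python 3.11.15, numpy 2.4.6, scipy 1.17.1, pandas 2.3.3 and scanpy 1.11.5 were used.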

Additional observations from a re-analysis of the deposited data

Results flagged for a closer look

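The cycling share in Kif13b-/- over WT ran in opposite directions in macrophage-like barcodes, with a ratio of 1.13, and in barcodes of all other classes, with a ratio of 0.513. This difference between classes was not tested, since each genotype has 1 library. With classes from clusters both ratios were below 1, at 0.710 and 0.629. Without the cluster held almost only by Kif13b-/-, the ratio of the other classes was 0.664.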

How the results depend on the processing

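The ratio of the cycling share in Kif13b-/- over WT (0.714) was 0.529 from 5000 UMIs, 0.991 at a mitochondrial limit of 10%, 0.454 after thinning to 1500 UMIs with 2 UMIs over 2 genes, 0.467 with WT standardised to the Kif13b-/- depths and 0.464 with a rule from the S and G2/M lists. It reversed to 1.18 with 2 UMIs over 2 genes at full depth. For all classes but macrophages (0.513) these gave 0.338 after thinning and 1.21 at full depth. The macrophage share of cycling barcodes kept its direction under all 9 alternatives, with ratios of 1.26 to 1.92. The S median of all cycling barcodes (0.11) was 0.27 with CPM averaged per barcode, 0.055 from 5000 UMIs and 0.21 after thinning. The G2/M median (-0.25) was -0.29 with CPM per barcode, -0.28 without putative doublets, -0.30 with a 6-gene level of at least 500 CPM and -0.41 after thinning, and the S share difference (6.33 points) was 8.75 points after thinning. In macrophages the S median (0.00) was -0.14 after thinning, and the G2/M median (-0.01) was -0.10 per barcode, -0.22 after thinning and reversed to 0.015 with list genes measured from 5 UMIs. In the other classes the S median (0.33) was 0.47 per barcode, 0.41 with at least 8 UMIs of the 6 genes, 0.43 with at least 500 CPM and 0.61 after thinning, and the G2/M median (-0.42) was -0.36 at a mitochondrial limit of 10% and -0.33 after thinning. Single genes in cycling macrophages reversed after thinning for Kif13b (0.20), Tmem39a (-0.16), Fap (0.30) and H1f4 (0.53), without the highest barcode for Fabp5 (0.37), and with CPM per barcode for Gas6 (0.0093). The causes were not tested. Settings without the Kif13b-/- cluster, without each gene's highest barcode and with the 500 CPM level, and all those of the other classes, were chosen after seeing the data. No paired analysis was possible because each genotype has 1 library. The counts rest on 66 and 199 cycling barcodes, 31 and 50 of them macrophage-like, and in many named genes on 1 barcode.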

Other observations

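A cluster of neutrophil genes (S100a8, S100a9 and Stfa3) with Ube2c and Prc1 among its leading genes held 0 cycling of 22 barcodes in Kif13b-/- and 11 of 72 in WT, at a median depth of 2775.5 UMIs.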
